A study of Homo sapiens with 4 samples.

Results

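NF-kB is a family of dimeric transcription factors that IkB proteins hold inactive in the cytoplasm. Cytokines and other stimuli activate the IkB kinases, which mark the inhibitors for destruction and free the dimers to enter the nucleus and bind kappaB sites. The genes they switch on include the pathway's own inhibitors, and in mammary epithelial cells they also serve cytokine responses and survival.

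The 10 NF-kB genes described here are NFKB1, NFKB2, RELA and RELB (the DNA-binding subunits), NFKBIA, NFKBIZ and BCL3 (IkB family), TNFAIP3 (a ubiquitin-editing enzyme that ends signalling), BIRC3 (a ubiquitin ligase of the inhibitor of apoptosis family) and TNFAIP2 (a gene induced by tumour necrosis factor). They were chosen by symbol, and every site that the authors' deposited table pairs with 1 of these symbols was taken. That gave 17 of the 15131 sites, paired with 8 of the 10 genes. NFKB1 and TNFAIP2 had no row and count as having no site. For comparison, 44.2% of the 20052 protein-coding genes of the reference table were paired with any site.

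The data came from hTert-HME1, a telomerase-immortalized line of human breast epithelium, grown in mammary epithelial medium and harvested in log phase. Cells were fixed in 1% formaldehyde for 10 minutes, and the labels name no cytokine or other stimulus for either group. There were 2 libraries of chromatin precipitated with an antibody to BRCA2, a homologous recombination protein, and 2 libraries of input chromatin, and the design asked where BRCA2 lies relative to input. No library of a control antibody was used here, so binding by BRCA2 cannot be told apart from non-specific pull-down. The labels do not say whether replicates are separate cultures, and a ChIP table holds no expression with which to check the cell type.

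Every level, fold and FDR given here is a value of the authors' deposited table, on hg19. A level is the group's mean log2 concentration of normalized reads in a site, a log2 fold is the ChIP level minus the input level, and a site is listed only if its FDR was at most 0.05. The table gives no value per library, so the spread between replicates and the depth are unknown here. Because only passing sites are listed, a gene with no site is one with no listed site, and the genes were chosen with earlier results of these data known, so no p-value is given for them as a group.

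The sequences of 5 promoters are shown first, to set genes with a BRCA2 site at the listed start beside genes without one. BIRC3 had a site at its start and none past its end. NFKBIZ and RELA had a site at the start and a stronger one past the end. NFKBIA and TNFAIP3, the genes with the largest folds, had one past the end and none at the start. Each window is RefSeq's, on GRCh38.p14, and runs 5′ to 3′ on the gene's strand from 250 bases before a RefSeq start to 50 after it. Capitals mark matches to the kappaB consensus decamer on either strand. The windows are BIRC3 at chr11:102317234-102317533 on the forward strand, NFKBIZ at chr3:101827740-101828039 on the forward strand, RELA at chr11:65663808-65664107 on the reverse strand, NFKBIA at chr14:35404700-35404999 on the reverse strand and TNFAIP3 at chr6:137867009-137867308 on the forward strand.
BIRC3: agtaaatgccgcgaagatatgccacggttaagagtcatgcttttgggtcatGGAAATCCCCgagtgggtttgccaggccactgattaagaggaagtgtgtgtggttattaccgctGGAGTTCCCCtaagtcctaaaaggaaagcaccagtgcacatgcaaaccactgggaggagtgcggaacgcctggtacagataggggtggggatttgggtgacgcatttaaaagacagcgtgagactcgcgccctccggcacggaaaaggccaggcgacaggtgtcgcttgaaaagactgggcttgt
NFKBIZ: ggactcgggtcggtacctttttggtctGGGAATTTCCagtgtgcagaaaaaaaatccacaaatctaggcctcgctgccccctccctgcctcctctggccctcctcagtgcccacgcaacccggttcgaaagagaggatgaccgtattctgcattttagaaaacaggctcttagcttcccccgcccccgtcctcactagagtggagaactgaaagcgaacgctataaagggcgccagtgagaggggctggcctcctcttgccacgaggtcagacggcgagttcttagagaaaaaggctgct
RELA: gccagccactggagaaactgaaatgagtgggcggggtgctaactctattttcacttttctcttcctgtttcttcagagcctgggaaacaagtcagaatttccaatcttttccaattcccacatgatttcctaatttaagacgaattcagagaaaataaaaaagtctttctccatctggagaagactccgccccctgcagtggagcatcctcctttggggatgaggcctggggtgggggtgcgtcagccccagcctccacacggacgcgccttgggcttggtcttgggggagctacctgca
NFKBIA: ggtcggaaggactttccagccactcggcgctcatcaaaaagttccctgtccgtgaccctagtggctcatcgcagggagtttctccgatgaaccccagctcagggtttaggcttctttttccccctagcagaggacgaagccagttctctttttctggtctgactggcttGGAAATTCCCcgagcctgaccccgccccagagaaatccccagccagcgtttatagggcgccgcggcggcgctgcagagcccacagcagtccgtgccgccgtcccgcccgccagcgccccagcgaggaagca
TNFAIP3: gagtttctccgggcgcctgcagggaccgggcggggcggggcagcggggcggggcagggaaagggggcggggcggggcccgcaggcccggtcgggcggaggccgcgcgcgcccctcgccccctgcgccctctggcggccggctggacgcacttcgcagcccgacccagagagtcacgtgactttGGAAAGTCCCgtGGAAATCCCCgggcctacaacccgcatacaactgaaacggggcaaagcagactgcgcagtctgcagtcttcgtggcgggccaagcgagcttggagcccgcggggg

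The BIRC3 and TNFAIP3 windows each hold 2 kappaB matches, those of NFKBIZ and NFKBIA 1 each, and that of RELA none. The TNFAIP3 window belongs to a RefSeq start 910 bp inside the outermost one, and the others to the outermost start. That start need not be the one listed on hg19. RELA is 10257 bp long in RefSeq and 9499 bp by the listed distances, so 1 or both of its ends differ. Which RELA window lies at the listed start is not known here. If the far ends are the same, the listed start is nearer to RefSeq's other RELA start, 941 bp inside, than to that of the printed window. For NFKBIZ the lengths are 33033 and 33032 bp, and for NFKBIA 3237 and 3239 bp. RefSeq gives 14 windows for 9 of the 10 genes, with none for RELB. A kappaB match was found in 9 of these windows, in 7 genes, against 11.3% of all 35116 windows. The SP1 box GGGCGG was in 12 of the 14 windows and in 45.0% of all windows. The cyclic AMP response element core TGACGT was in 2 windows, those of NFKB1 and NFKB2, against 7.98% of all. The sequence TATAAA was in 2, NFKBIA and NFKBIZ, against 11.5%, and the AP-1 site TGANTCA was in 0, against 7.71%. Both strands were searched for each motif, and kappaB matches in NFKB2 overlap one another. A match describes letters only. The BRCA2 sites themselves are 500 bp long on hg19, and their sequence is not used here.

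The highest BRCA2 levels of the 17 sites lay past the ends of TNFAIP3 and NFKBIA, both genes of inhibitors of the pathway. TNFAIP3 had the largest fold of the 10 genes. In the authors' deposited table, its site on chromosome 6 from 138204535 to 138205034 begins 86 bp past the gene end, with a ChIP level of 8.29 and an input level of 4.99. If the level is read as DiffBind defines it, this is a mean of 313 normalized reads in ChIP and 31.8 in input. The log2 fold was 3.30, or 9.85-fold, with an FDR of 4.14e-23, and 96.9% of all sites had a smaller fold. A second TNFAIP3 site lay 34734 bp upstream, inside the noncoding gene RP11-356I2.4, with a log2 fold of 1.39, a ChIP level of 6.82 and an input level of 5.43.

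NFKBIA encodes IkB-alpha, the inhibitor that is destroyed and remade in each round of signalling. Its 1 site lay on chromosome 14 from 35869479 to 35869978, 739 bp past the gene end. The ChIP level in the authors' deposited table was 7.78 and the input level 4.86, giving a log2 fold of 2.92 (7.57-fold, FDR 2.42e-18). Of all sites, 95.9% had a smaller fold. The gene spans 3239 bp by the listed distances, and the far edge of the site lies 4476 bp from its start. The table also pairs the site with LRG_89, a second record of nearly the same span.

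NFKBIZ encodes a nuclear IkB protein that acts with NF-kB at promoters. It had 2 sites, at opposite ends of a gene of 33032 bp. The site past the end, by 982 bp, had a ChIP level of 6.96 and an input level of 4.76, which is a log2 fold of 2.20 (FDR 1.48e-08) in the authors' deposited table. The site at the start ended 9 bp before it, with a ChIP level of 6.56 and an input level of 5.53. Its log2 fold was 1.03 with an FDR of 0.00314, smaller than that past the end. The start site also lies inside NXPE3, a gene on the same strand, 247 bp before the end of its listed span. It is therefore also close to the end of another gene.

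BCL3 encodes an IkB protein that binds NF-kB dimers on DNA. It had 4 sites, with log2 folds between 1.00 and 1.49 in the authors' deposited table and none past the end. The largest, 1.49 with an FDR of 0.000565, was 177 bp upstream of the start, at a ChIP level of 6.49 and an input level of 5.00. The highest ChIP level of the 4, 7.19, was 5338 bp upstream, where input was also higher at 5.82, so its fold was 1.37. The other sites lay inside the gene, 5473 and 6292 bp from the start, with folds of 1.00 and 1.23. Only 2.24% of protein-coding genes had 4 sites or more.

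**Figure D1:**
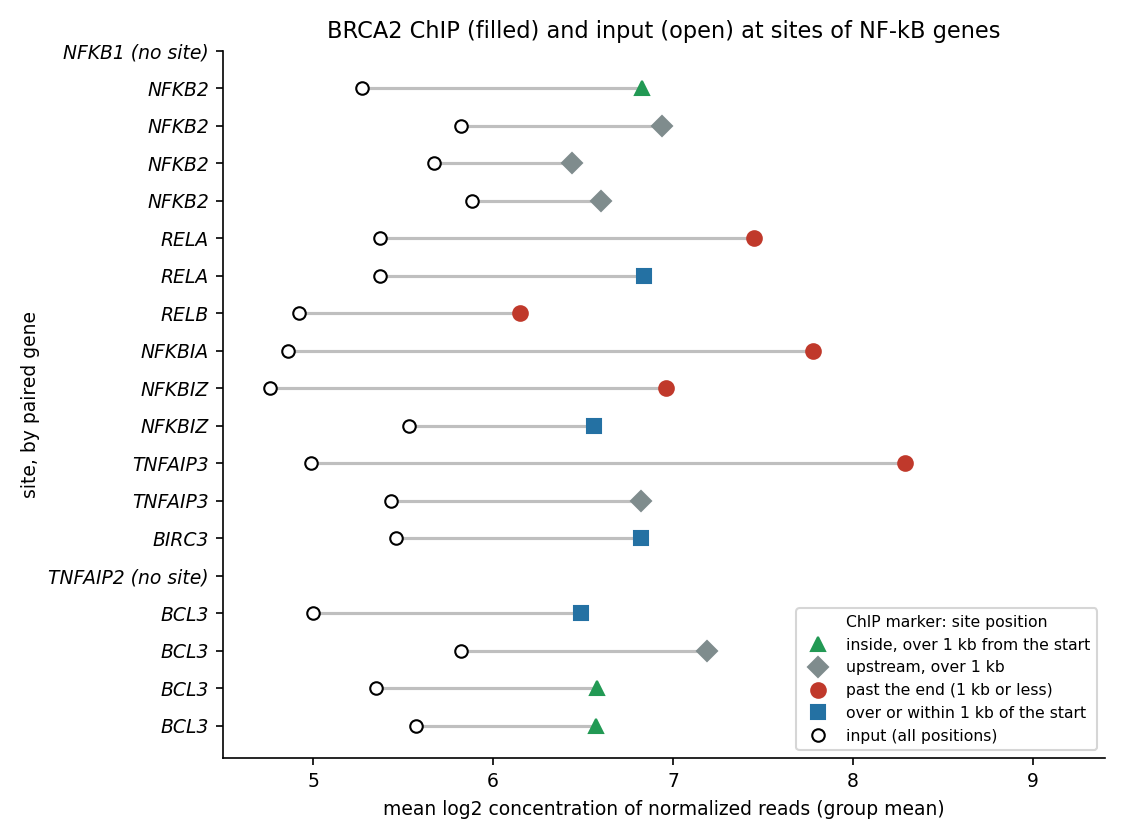
Mean log2 concentration of normalized reads in BRCA2 ChIP (filled) and input (open) at each of the 17 sites, with 1 line per site and the marker giving its position; these are group means with no error bars because no value per library is given. The ChIP level runs from 6.15 at RELB to 8.29 at TNFAIP3, and the lowest input, 4.76, is at the site past the end of NFKBIZ.

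Among the DNA-binding subunits, RELA had the clearest sites. RELA encodes the main activating subunit of NF-kB. Its site past the end, by 399 bp, lay on chromosome 11 from 65420169 to 65420668, with a ChIP level of 7.45, an input level of 5.37 and a log2 fold of 2.08 (FDR 6.87e-11) in the authors' deposited table. Its other site was 113 bp upstream of the start, with a ChIP level of 6.84, the same input level of 5.37 and a log2 fold of 1.46 (FDR 3.44e-05). Both ends of RELA thus carried a listed site, and at equal input the ChIP level was higher at the far end. RefSeq gives RELA another start 941 bp inside the outermost one.

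RELB, a subunit of the non-canonical pathway, had 1 site with the lowest ChIP level of the 17. The level was 6.15 against an input level of 4.92, a log2 fold of 1.23 with an FDR of 0.00179 in the authors' deposited table. The site lies 768 bp past the end of RELB and over the start of CLASRP, the next gene on the same strand, whose start is 78 bp from the site's edge. It is therefore also a start site of another gene, unlike the sites past the ends of TNFAIP3, NFKBIA, NFKBIZ and RELA, which are within 1 kb of no listed start.

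NFKB2, the precursor subunit of the non-canonical pathway, had 4 sites on chromosome 10. Only 1 was in the gene. It starts 1067 bp inside, with a ChIP level of 6.83, an input level of 5.27 and a log2 fold of 1.56 (FDR 3.59e-05) in the authors' deposited table. RefSeq places further NFKB2 starts 468 and 1595 bp inside the outermost one, and both of those windows hold kappaB matches. If the outermost start is the listed one, this site, of 500 bp, ends shortly before the start at 1595 bp. The builds differ, so this was not checked. The other 3 sites are 41578 to 50786 bp upstream and lie inside GBF1, the gene of a Golgi exchange factor. Their log2 folds were 0.72, 0.77 and 1.11, and the first 2 of these are the smallest of the 17, with FDR values of 0.0417 and 0.0324. Chromosome 10 had a median input of 5.91, higher than that of all sites by 0.49, and the part of this in the NFKB2 folds was not tested.

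BIRC3 was the 1 gene of the 10 with a site across its listed start. The site lies on chromosome 11 from 102187805 to 102188304, with 89 bp of it past the start. Its ChIP level was 6.82 and its input level 5.46, a log2 fold of 1.36 with an FDR of 8.73e-05 in the authors' deposited table. This fold was larger than at 66.9% of all sites. BIRC2, the neighbouring gene of the same family, had no listed site.

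NFKB1, the precursor subunit of the canonical pathway, and TNFAIP2 had no listed site at all. The neighbours of NFKB1 held more listed sites than those of TNFAIP2. Of the 3 protein-coding neighbours on each side of NFKB1 in RefSeq, 3 had a site. UBE2D3, a ubiquitin-conjugating enzyme gene, had a log2 fold of 3.43 inside the gene, and MANBA, of lysosomal mannosidase, 2.43 over its start. PPP3CA, of calcineurin, had 1.73 at a site over 1 kb upstream of it. Of the 6 neighbours of TNFAIP2, CDC42BPB, the farthest on its side, had a site, inside the gene, and the other 5 had none. NFKB1 lies on chromosome 4, where 17.7% of protein-coding genes had a site and the median input was 4.51, and TNFAIP2 on chromosome 14, with 31.2% and 5.03. The median input of all sites was 5.42, and the part of the low input in these missing sites was not tested.

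**Figure D2:**
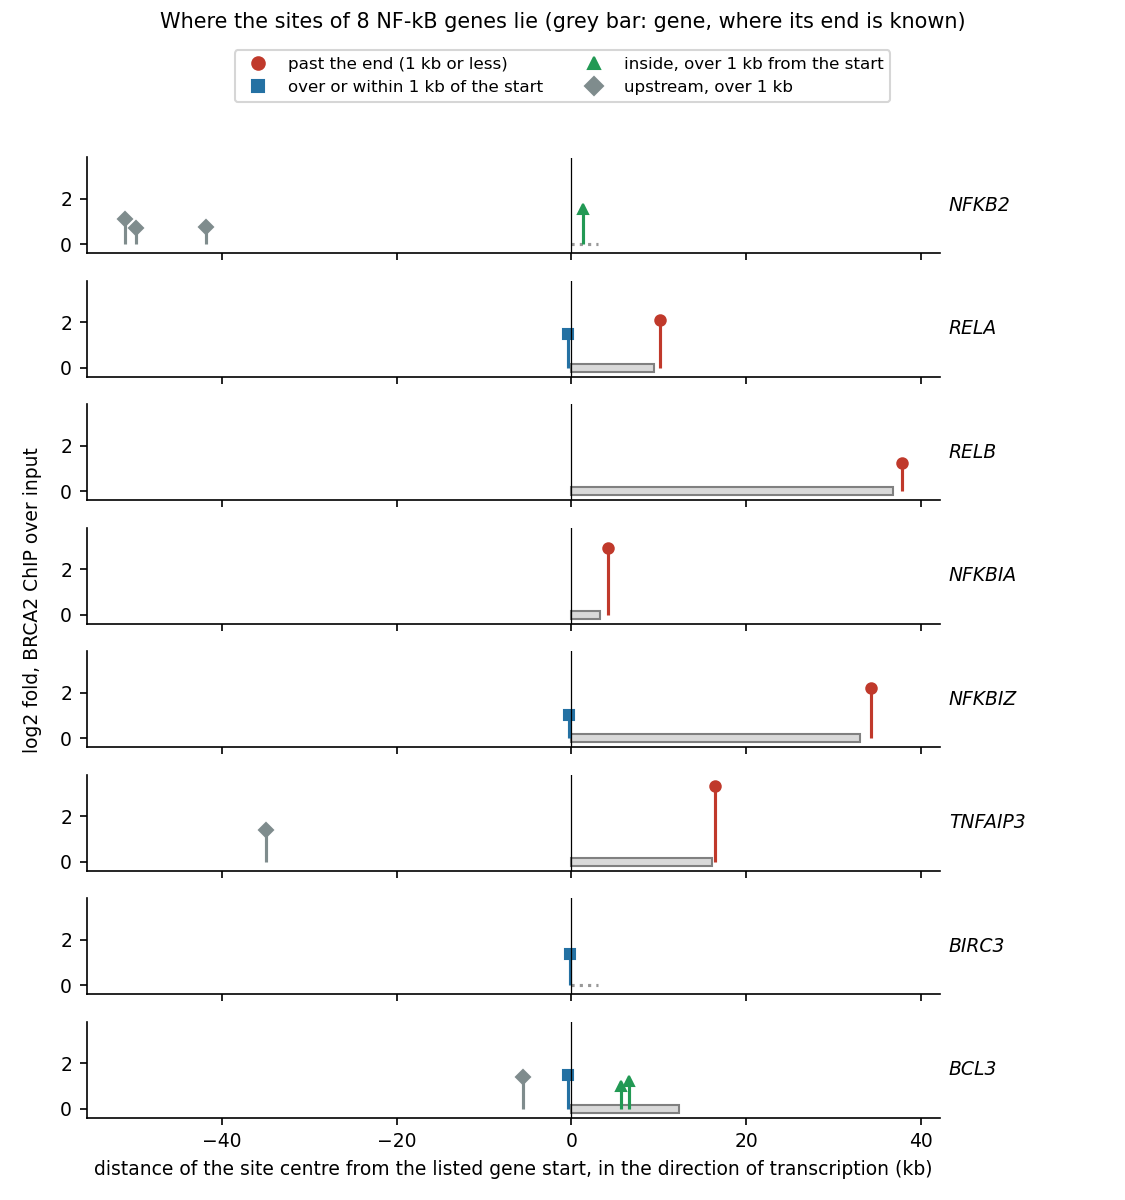
Log2 fold of each site (height) against the distance of its centre from the listed gene start in kb, positive in the direction of transcription, for the 8 genes with a site; grey bars show the gene where the listed distances give its end, and dotted lines stand for genes whose end they do not give. The tallest marks, at TNFAIP3, NFKBIA, NFKBIZ and RELA, stand just beyond the right end of the bar.

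By position, 5 of the 10 genes (RELA, RELB, NFKBIA, NFKBIZ and TNFAIP3) had a site 1 kb or less past the end, against 2.51% of protein-coding genes. A site within 1 kb of the listed start was held by 4 of the 10 (RELA, NFKBIZ, BIRC3 and BCL3), against 23.4% of protein-coding genes. Both kinds were present at RELA and NFKBIZ, and at 0.913% of protein-coding genes. This grouping by position was chosen after the values were seen. The start window uses the listed distance, which runs from the site's lower-coordinate edge. The window past an end uses the nearest edge. With the shortest distance used at starts, the count of the 10 genes was also 4. The table lists a gene past whose end a site lies mostly within 1 kb, since 595 of 604 such pairings to a gene other than the nearest start were within that distance. Sites farther past an end can therefore go unlisted.

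Folds differed by position. The 5 sites past an end had a median log2 fold of 2.20, from 1.23 at RELB to 3.30 at TNFAIP3. The 4 sites at starts had a median of 1.41, from 1.03 to 1.49, and the other 8 a median of 1.17, from 0.72 to 1.56. Thus 4 of the 5 sites past an end were above every site elsewhere, and RELB was within the range of the others. Over the whole table, sites 1 kb or less past a gene end had a median of 1.40 (782 sites), those within 1 kb of a start 1.26 (5042 sites) and all sites 1.15.

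Of the 17 sites, 4 had a log2 fold of 2 or more, against 10.9% of all sites. All 4 were past the ends of TNFAIP3, NFKBIA, NFKBIZ and RELA. They were thus 4 of the 5 member sites 1 kb or less past an end, against 24.7% of all such sites. Of the 399 such sites of the whole table that were within 1 kb of no start, 28.3% reached 2. By gene, 4 of the 10 had a strongest site of at least 2, against 7.82% of protein-coding genes, and 4 of the 10 had one of that size past the end, against 0.788%. The median strongest fold of the 8 genes with a site was 1.82, and that of all 8853 protein-coding genes with a site was 1.31.

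Input levels moved with position as well. The 5 sites past an end had input levels from 4.76 to 5.37, and the other 12 from 5.00 to 5.88. ChIP levels there ran from 6.15 to 8.29, and at the other 12 from 6.44 to 7.19. With each site's input replaced by the median input of its chromosome, the log2 fold was 2.89 at TNFAIP3, 2.75 at NFKBIA and 2.01 at RELA, but 1.53 past the end of NFKBIZ. Under that scale, 3 sites reached 2. This alternative was chosen after seeing the data.

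**Figure D3:**
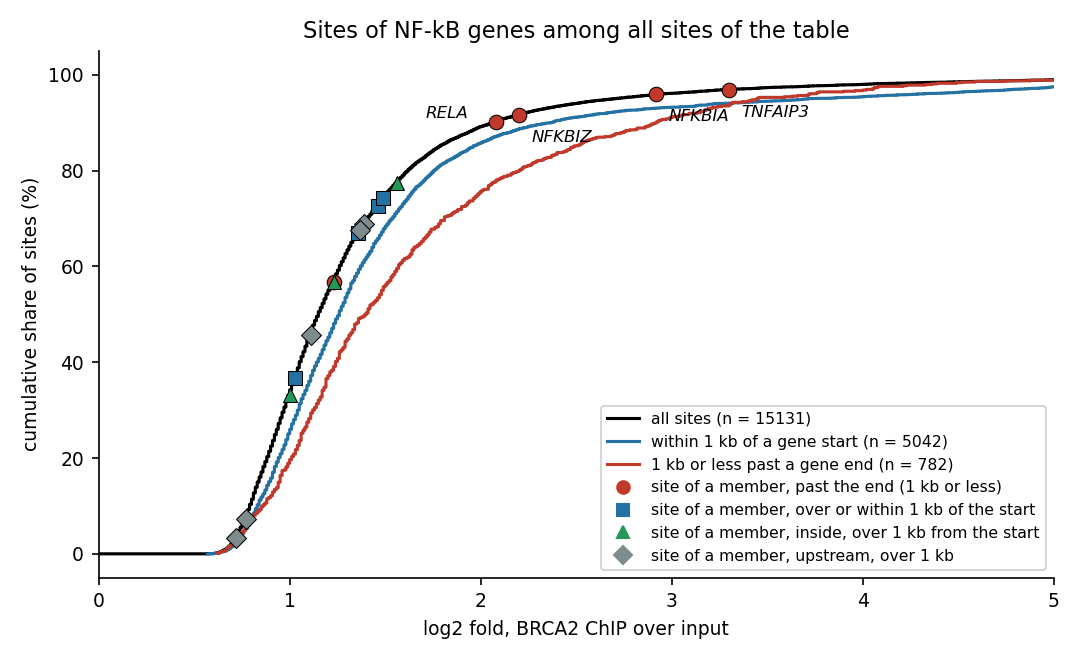
Cumulative share of sites (%) up to each log2 fold for all 15131 sites (black), the 5042 within 1 kb of a gene start (blue) and the 782 that lie 1 kb or less past a gene end (red), with the 17 sites of the NF-kB genes placed on the black curve; the axis shows folds from 0 to 5. TNFAIP3, NFKBIA, NFKBIZ and RELA sit where over 90% of all sites have a smaller fold, and the remaining sites lie between 3.24% and 77.3%.

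The rest of the pathway was read from a list of 91 further genes in 7 roles. Of these, 53 had a site (58.2%, against 44.2% of protein-coding genes), 21 had one within 1 kb of the start (23.1%, against 23.4%) and 10 had one 1 kb or less past the end (11.0%, against 2.51%). The share with a site at the start was thus near that of all protein-coding genes. MYD88 and TRAF3 are not counted at the start, since their listed distances are over 1 kb. The nearest edges of their sites lie 573 and 984 bp from the start. In 13 of the 91 the strongest site had a log2 fold of 2 or more (14.3%, against 7.82%). Their median strongest fold was 1.55, against 1.31 over all protein-coding genes with a site.

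Among the ligands, 3 of 9 had a site (33.3%, against 44.2% of protein-coding genes). IL1A, the gene of interleukin-1 alpha, had a log2 fold of 3.41 at a site 267 bp past its end (ChIP level 8.56, input level 5.15, FDR 2.82e-26) in the authors' deposited table. IL1B, of interleukin-1 beta, had 3.11 at a site over its end (ChIP level 8.58, input level 5.47). TNFSF11, of the RANK ligand, had 1.89 at a site 64512 bp upstream. TNF, LTA, LTB, TNFSF12, TNFSF13B and CD40LG had none.

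Among the receptors, 6 of 12 had a site, a share near the 44.2% of all protein-coding genes. TLR3, a sensor of double-stranded RNA, led in the authors' deposited table with 2.50 on the log2 scale at a site across its start, on chromosome 4 and at a low input level of 3.81. The tumour necrosis factor receptor genes TNFRSF1A and TNFRSF1B followed with 1.81 and 1.70, inside the gene and 4865 bp upstream. IL1R1, CD40, TLR2 and TLR4 were among the 6 with none.

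Adaptors and upstream kinases had sites at 11 of 22, also near the 44.2% of all protein-coding genes, and none reached a log2 fold of 2. The largest values in the authors' deposited table were 1.73 at MYD88, the adaptor of interleukin-1 and Toll-like receptors, 1.62 at RNF31, the catalytic part of the linear ubiquitin ligase, and 1.60 at MAP3K7, the TAK kinase gene. The MAP3K7 site is 203425 bp upstream, and that of RNF31 is over its start and shared with PSME2. Of the 5 IkB kinase genes, 4 had a site (80.0%, against 44.2% of protein-coding genes). Each of the 4 had one within 1 kb of the start (80.0%, against 23.4%). IKBKB, of the kinase that marks IkB-alpha, led with 2.34 at 20450 bp inside the gene, followed by TBK1 with 1.53 and CHUK with 1.22, both over the start.

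Of the remaining Rel and IkB family genes, 2 of 4 had a site, against 44.2% of protein-coding genes. REL and NFKBIB had log2 folds of 1.55 and 0.93 at their starts in the authors' deposited table, and NFKBIE and NFKBID had no site. Of 8 further deubiquitinases and inhibitors, 4 had a site, again near the 44.2% of all protein-coding genes. ZC3H12A, of an RNase that degrades inflammatory messages, had 2.56 past its end, by 1025 bp (FDR 0.000187). That FDR is large for the fold: IKBKB, at the same ChIP level of 7.57 and a fold of 2.34, had 4.12e-14. OTULIN, of a linear-chain deubiquitinase, had 1.44 upstream of its start. TNIP1, of a partner of the TNFAIP3 protein, had 1.33 inside the gene. CYLD had none.

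Known NF-kB target genes had sites at 23 of 31 (74.2%, against 44.2% of protein-coding genes), and 8 of the 31 reached a log2 fold of 2 (25.8%, against 7.82%). SOD2, of mitochondrial superoxide dismutase, had the largest fold of the wider list, 5.31 at a ChIP level of 10.0 and an input level of 4.69 in the authors' deposited table. That site lies inside the listed span of SOD2, 69315 bp from the listed start, and is also paired with HNRNPH1P1. Whether it lies near another start of SOD2 was not examined. KLF6, of a zinc finger factor, had 3.77 at a site over its end, and CXCL2, of a neutrophil chemokine, 3.76 past its end, by 769 bp. CXCL2 has close copies in CXCL1 and CXCL3, so reads may have been split among the copies and these values are uncertain. A site 1 kb or less past the end was held by 7 of the 31 (22.6%, against 2.51%). These were CXCL2, CXCL3, PTGS2, GADD45B, CCND1, EFNA1 and NUAK2, named after their values were seen. The EFNA1 site is also paired with SLC50A1 and the CCND1 site with ORAOV1. Whether these are start sites of those genes was not examined. GADD45B, a stress-response gene, had 3.63 at 145 bp past its end, and PTGS2, of the inducible cyclooxygenase, 2.95 at 208 bp. IL6, CCL2 and VCAM1 were among the 8 with none.

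**Figure D4:**
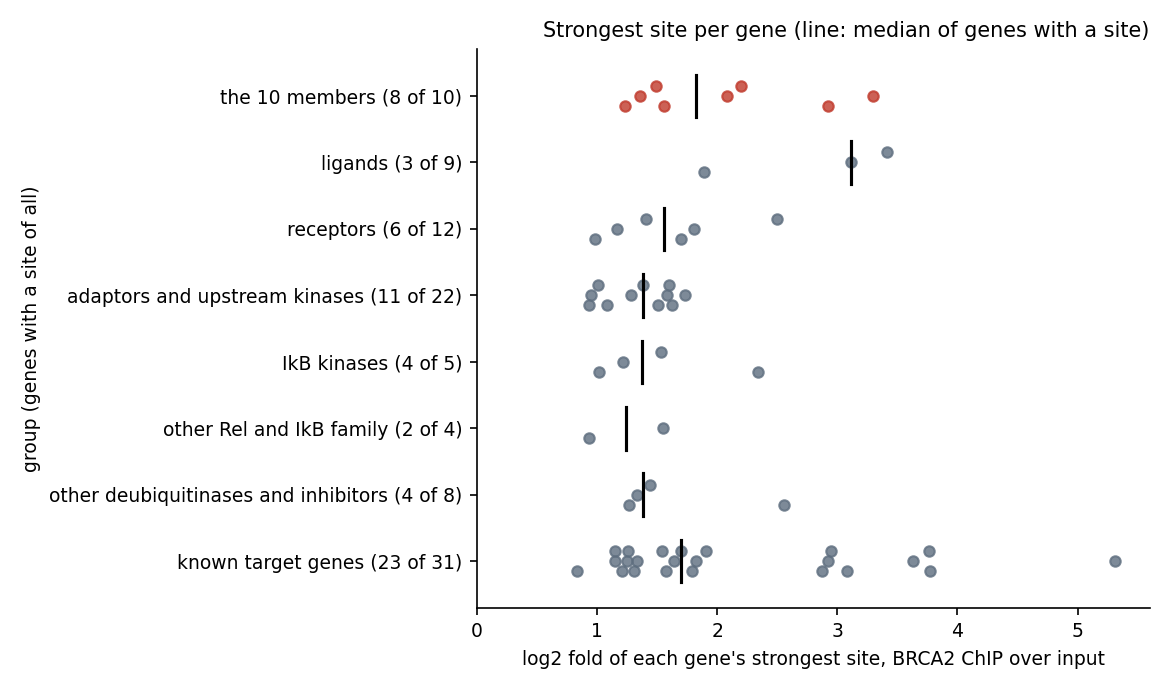
Log2 fold of the strongest site of each gene with a site, for the 10 NF-kB genes (red) and for the 7 roles of the wider pathway list (grey), with counts of genes with a site and a line at their median. Folds over 3 are seen at TNFAIP3, at the ligands IL1A and IL1B and among the target genes. None of the 22 adaptors and upstream kinases reaches 2, a level reached by 7.82% of protein-coding genes.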

How the data were processed

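Per the series' design text, the authors compared 2 BRCA2 ChIP libraries with 2 input libraries by DiffBind. The hg19 build and, in no stated order, MACS2, Bowtie 1.1.1, cutadapt 1.8.1, Picard 1.92 and SAMtools come from the submitters' processing notes, and DiffBind's scaling is not given in the sources used here. Per the file headers, the deposited table holds the authors' log2 concentration of each group, their log2 fold and their FDR (a q-value) for each site, with the distance in bp to each paired gene. At each site the fold matched the difference of the concentrations to 0.01. Depth per library is unknown.

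The members and gene lists were chosen with earlier results of these data known, so they were described by counts and medians, without tests. The named genes were the 10 members, the genes sharing their sites and, in each role of the wider pathway, the 3 with the largest fold, and others are named as chosen later. Genes were matched by Entrez ID, then symbol, to RefSeq (GRCh38.p14), used for names, lengths, neighbours and promoter sequence only. Of the 91 wider genes, 91 matched. Starts were converted to count from 1. Gene spans were rebuilt from the listed distances. The position classes were tested on simulated data. Python 3.11.15, pandas 2.3.3 and matplotlib 3.10.9 were used. Alternatives were FDR under 0.01 and 0.001, a log2 fold of at least 1, start windows of 3 kb and 5 kb, the shortest distance, and pairings within 5 kb.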

Additional observations from a re-analysis of the deposited data

How the results depend on the processing

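Of 31 recomputed values, 25 stayed within 1.5 times the reported count or within 0.01 of the reported median, and 0 reversed. Only a median of opposite sign counted as reversed, and all member folds were 0.72 or more. The 4 sites with a log2 fold of 2 or more had FDR values of at most 1.48e-08. They also lay within 1 kb of the gene, so the FDR cuts and the 5 kb limit could not change that count. The tally is therefore no measure of robustness. The median log2 fold of the member sites, 1.37 as reported, was 1.39 at an FDR under 0.01, 1.49 at an FDR under 0.001, 1.475 with pairings limited to 5 kb, and 1.24 with the chromosome's median input, an alternative chosen after seeing the data. The number of member sites fell from 17 to 11 at an FDR under 0.001. There 7 of the 10 genes still had a site, against 26.0% of protein-coding genes at that cut. RELB was lost there, and 4 genes had a site past the end. With a window of 500 bp past the end, also chosen after seeing the data, 2 of the 10 genes had a site there, RELA and TNFAIP3. The window is shorter than the gaps at NFKBIA, NFKBIZ and RELB. The share of all protein-coding genes was not computed for that window. No paired analysis was possible because the table gives group means and no value per library, and for the same reason no library could be left out. Depth, and so the precision of each level, is unknown.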

Other observations

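Some strong sites of the wider list lay over a gene end or just over 1 kb past it, outside the class of 1 kb or less past an end. ZC3H12A is still counted there through another of its sites. In the authors' deposited table, the strongest sites of CXCL1 and ZC3H12A began 1013 and 1025 bp past the end, with log2 folds of 2.92 and 2.56. Their FDR values were 2.94e-15 and 0.000187, so the ZC3H12A site is the less certain. The strongest sites of IL1B and KLF6 lay over the end, with 3.11 and 3.77. CCL20, a chemokine gene, had a log2 fold of 3.08 at a site 22130 bp past its end, far from the class. These genes were named after their values were seen.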
